A study of Mus musculus with 6 samples.

Results

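Heme and iron recycling was followed through 10 genes in RNA sequencing libraries of sorted mouse regulatory T cells, which express Foxp3 and hold other immune cells in check. The genes were chosen by symbol, and each had a row among the 24424 genes with counts and the 23393 genes with normalized values. They are 6 genes of macrophages that recycle iron (Spic, Hmox1, Slc40a1, Slc11a1, Cd163 and Blvrb), the ferritin subunit genes Ftl1 and Fth1, and the erythroid genes Alas2 and Slc4a1. Cells had been taken from spleen and peripheral lymph node. The 6 libraries formed 3 groups of 2: KO EAE (genotype label KO_EAE), KO at steady state, and WT at steady state. EAE is the usual short form of experimental autoimmune encephalomyelitis, an induced inflammation of the central nervous system. The strain label of both KO groups is Bcl11bF/WT with Foxp3YFP-Cre +/-, so it gives a single floxed copy of Bcl11b beside a normal copy, and a Cre driven by Foxp3, although the genotype label is KO. The strain label of WT is Bcl11bF/F, with no Cre named, so the groups also differ in the Cre allele. The labels used here give no age and no day of EAE, and no WT EAE library was analysed here. Whether replicates came from different animals is not labelled, so the p-values measure only the spread between these libraries, which may be technical.

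Red pulp macrophages of the spleen take up aged red cells, break their heme down and return the iron to the blood. Spic is the transcription factor that these macrophages need to form, and heme itself induces it. Cd163 takes up hemoglobin bound to haptoglobin, Hmox1 opens the heme ring and frees its iron, and Blvrb reduces flavins and some isomers of the heme product biliverdin. Slc40a1 (ferroportin) exports iron from the cell, Slc11a1 (Nramp1) moves metal ions out of the phagosome, and Ftl1 and Fth1 encode the light and heavy chains of the ferritin shell that stores iron. Alas2 starts heme synthesis in red cell precursors, and Slc4a1 (band 3) is the anion exchanger of the red cell membrane.

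Iron acts on several of these genes after transcription, through the iron-responsive element, a short hairpin in the untranslated part of the messenger RNA that binds iron regulatory proteins when iron is low. The sites are shown because control through them acts on translation and so is not seen in the RNA levels given here. The sense strand of the mm10 transcripts of GENCODE M21 was searched for a C followed by 5 bases and the loop CAGTGN, in the untranslated part before the coding sequence, and these letters were found in 5 of the 10 members and in 2603 of 21181 genes (12.3%). Each site is given as 30 bases, with the bulged C and the loop letters CAGTGN in capitals. In order these lie at chrX:150547456-150547485 on the plus strand, chr19:9982730-9982759 on the plus strand, chr7:45459780-45459809 on the minus strand and chr1:45925466-45925495 on the minus strand.
Alas2: ctttggttCgtcctCAGTGCagggcaacag
Fth1: gtttcctgCttcaaCAGTGCttgaacggaa
Ftl1: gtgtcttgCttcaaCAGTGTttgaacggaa
Slc40a1: tccaacttCagctaCAGTGTtagctaagtt
The fifth member with the letters was Spic, where the match ran across a splice junction. In Tfrc, the transferrin receptor, where such elements lie after the coding sequence and guard the RNA from decay, 5 matches were found, the first at chr16:32631217-32631246 on the plus strand.
Tfrc: ataattatCggaagCAGTGCcttccataat

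The count table held 14663542 to 16904312 reads per library. A level of 3 reads is 0.177 to 0.205 CPM, the reads of a gene scaled to a common library size (counts per 1000000 reads). Levels below are CPM after TMM scaling. Bcl11b itself had 404 and 277 CPM in KO EAE, 371 and 369 CPM in KO and 419 and 424 CPM in WT (KO against WT log2 change -0.19, quasi-likelihood test of edgeR, p adjusted by Benjamini-Hochberg over all genes, adjusted p = 0.527), and a count over the whole gene does not single out its floxed part. In the normalized table, described below, Bcl11b had a signal of 6746 and 5211 in KO, against 10517.5 and 11371 in WT, with no overlap. The authors' deposited comparison, also described below, gives it a log2 fold change of -0.80 (adjusted p = 7.91e-08). The defining T cell markers were read in every library: Cd3e had 141 to 149.9 CPM, Cd4 278 to 315 CPM and Foxp3 149 to 210.4 CPM. Transcripts that mark other cells were also read: 16 red pulp macrophage markers, none of them at 0 in any library, summed to 2627 and 2876 CPM in KO EAE, 2861 and 3393 CPM in KO and 426 and 469 CPM in WT. In such bulk samples, fewer cells of a type and less RNA per cell cannot be told apart.

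The 6 iron recycling genes rose together in KO against WT, and both KO libraries lay above both WT libraries for each of them. Spic (chromosome 10, 88674772 to 88685015, mm10) had 73.6 and 80.5 CPM in KO, against 6.62 and 6.24 CPM in WT. The values within each group were close, and the groups lay far apart. The log2 change was 3.58 ± 0.18 (SE; adjusted p = 0.000121), a 12.0-fold difference. Cd163 (chromosome 6, 124304656 to 124330527), the hemoglobin scavenger receptor, had 137.6 and 171 CPM in KO and 5.75 and 8.87 CPM in WT. It had the highest fold of the 10 genes, at a log2 change of 4.40 ± 0.24 (adjusted p = 0.000147).

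Hmox1 (chromosome 8, 75093621 to 75100589), the heme-degrading enzyme, had 157 and 173 CPM in KO, against 47.2 and 56.8 CPM in WT. Its log2 change was 1.66 ± 0.11 (adjusted p = 0.000273), a 3.17-fold difference and the lowest of the 6 genes. Its libraries too did not overlap between the groups. Blvrb (chromosome 7, 27447978 to 27466144), a reductase of biliverdin isomers and flavins, had 48.8 and 54.2 CPM in KO and 13.6 and 14.4 CPM in WT, with a log2 change of 1.88 ± 0.12 (adjusted p = 0.000228).

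Slc40a1 (chromosome 1, 45908068 to 45926523), the iron exporter whose site is printed above, had 299.6 and 323 CPM in KO, against 44.2 and 50.6 CPM in WT. The log2 change was 2.71 ± 0.10 (adjusted p = 4.55e-05). Slc11a1 (chromosome 1, 74375195 to 74386062), the phagosomal metal transporter, had 135 and 155 CPM in KO and 10.7 and 11.3 CPM in WT, with a log2 change of 3.73 ± 0.12 (adjusted p = 3.85e-05) and a 13.2-fold difference. Both transporters were low in both WT libraries and high in both KO libraries, with no overlap.

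With Ftl1, Alas2 and Slc4a1, described below, 9 of the 10 members rose in KO against WT and none fell. Of all 14548 genes tested, 12.9% were called, 9.41% higher and 3.46% lower, and both KO libraries lay above both WT libraries for 32.7% of them. The members' median log2 change was 2.73, beside -0.01 over all genes. The red pulp macrophage markers moved with the members: 16 of 16 rose in KO against WT (median log2 change 2.81), among them Treml4 at 3.88, Adgre1 (F4/80) at 3.53, Hpgd at 3.35 and Fcna at 2.66. Their part in the members' change was not tested.

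**Figure D1:**
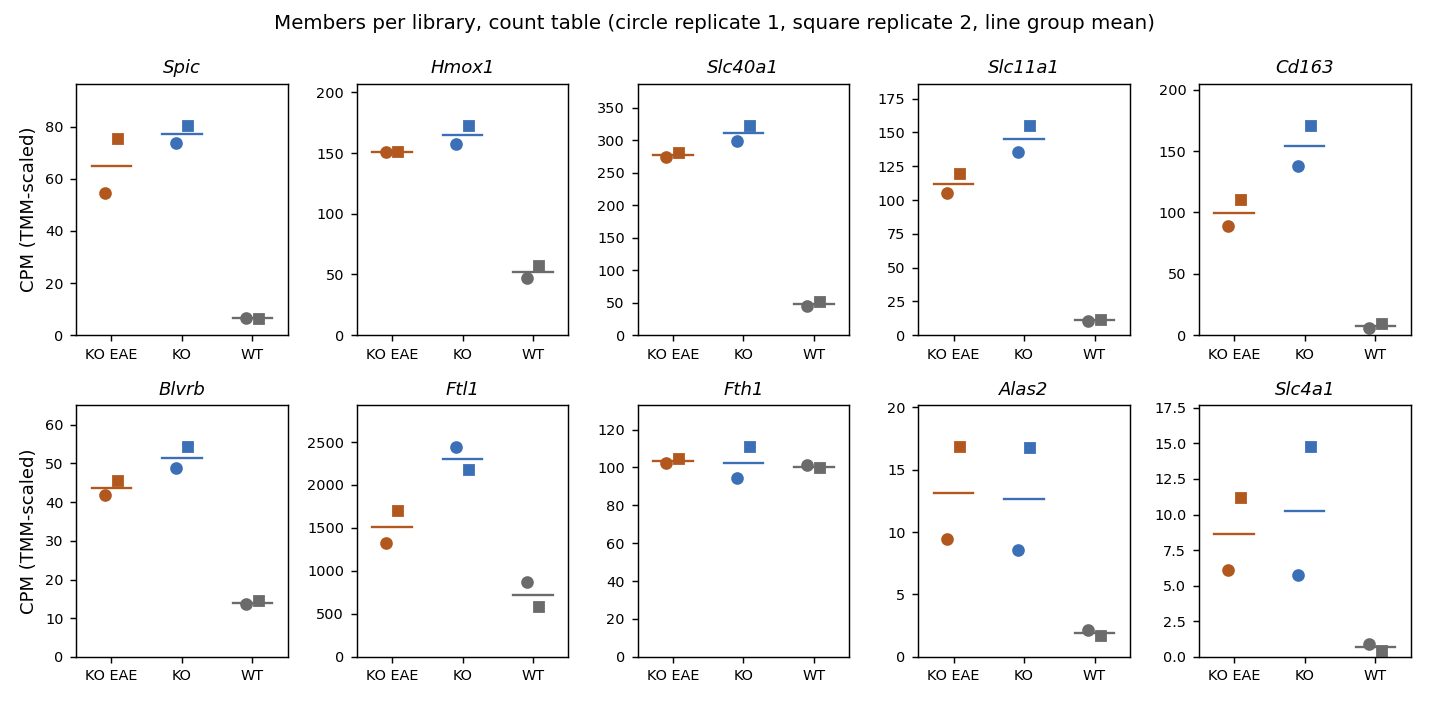
TMM-scaled CPM (vertical axes, each starting at 0) of the 10 members in the 6 libraries of the count table, with KO EAE at the left, KO in the middle and WT at the right of each panel; circles are replicate 1, squares replicate 2 and lines the group means. Spic stands at 73.6 and 80.5 CPM in KO and at 6.62 and 6.24 CPM in WT, while Fth1 stands between 94.5 and 110.6 CPM in every library.

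In KO EAE the 6 iron recycling genes also stood above WT. Spic had 54.5 and 75.2 CPM in KO EAE, against 6.62 and 6.24 CPM in WT (log2 change 3.33, adjusted p = 0.000212). Cd163 had 88.7 and 110.0 CPM in KO EAE, against 5.75 and 8.87 CPM in WT (log2 change 3.76, adjusted p = 0.000338). The other 4 had log2 changes of 1.54 for Hmox1, 1.64 for Blvrb, 2.55 for Slc40a1 and 3.35 for Slc11a1, with adjusted p of at most 0.000514. In all, 9 of 10 members rose in KO EAE against WT and none fell, where 9.36% of genes tested were called, 7.41% higher and 1.95% lower. Both KO EAE libraries lay above both WT libraries for all 10 members, Fth1 included, and for 29.8% of genes tested. This comparison shares its WT libraries with the one above. Among the red pulp macrophage markers 16 of 16 rose in KO EAE against WT as well (median log2 change 2.71).

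Between KO EAE and KO no member was called, where edgeR called 0.0137% of all genes. For Cd163 the KO EAE libraries had 88.7 and 110.0 CPM and the KO libraries 137.6 and 171 CPM. Both KO EAE values were the lower ones, and the log2 change was -0.63 (95% interval -1.12 to -0.15; unadjusted p = 0.0188, adjusted p = 0.496, edgeR). Slc11a1 had 104.9 and 119 CPM in KO EAE, against 135 and 155 CPM in KO, again with no overlap. Its log2 change was -0.37 (95% interval -0.62 to -0.12; adjusted p = 0.496).

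Hmox1 had 151 and 151 CPM in KO EAE, against 157 and 173 CPM in KO (log2 change -0.13, adjusted p = 0.679). Slc40a1 had 275 and 281 CPM in KO EAE, against 299.6 and 323 CPM in KO (log2 change -0.16, adjusted p = 0.592). Blvrb had 41.9 and 45.3 CPM in KO EAE, against 48.8 and 54.2 CPM in KO (log2 change -0.24, adjusted p = 0.556). These 3 genes and Ftl1 were also lower in both KO EAE libraries than in both KO libraries, so that 6 of 10 members had KO EAE below KO without overlap, where 21.4% of all genes tested did. Spic overlapped between the groups (log2 change -0.25, 95% interval -0.63 to 0.14, adjusted p = 0.623). The edgeR calls in this comparison were 2 of 14548 genes and none of the 10 members, of which 3 (Slc11a1, Cd163 and Ftl1) had an unadjusted p under 0.05, as had 9.47% of all genes. DESeq2 called 167 genes and none of the members. The red pulp macrophage markers had a median log2 change of -0.21 between the same groups, with none called.

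**Figure D2:**
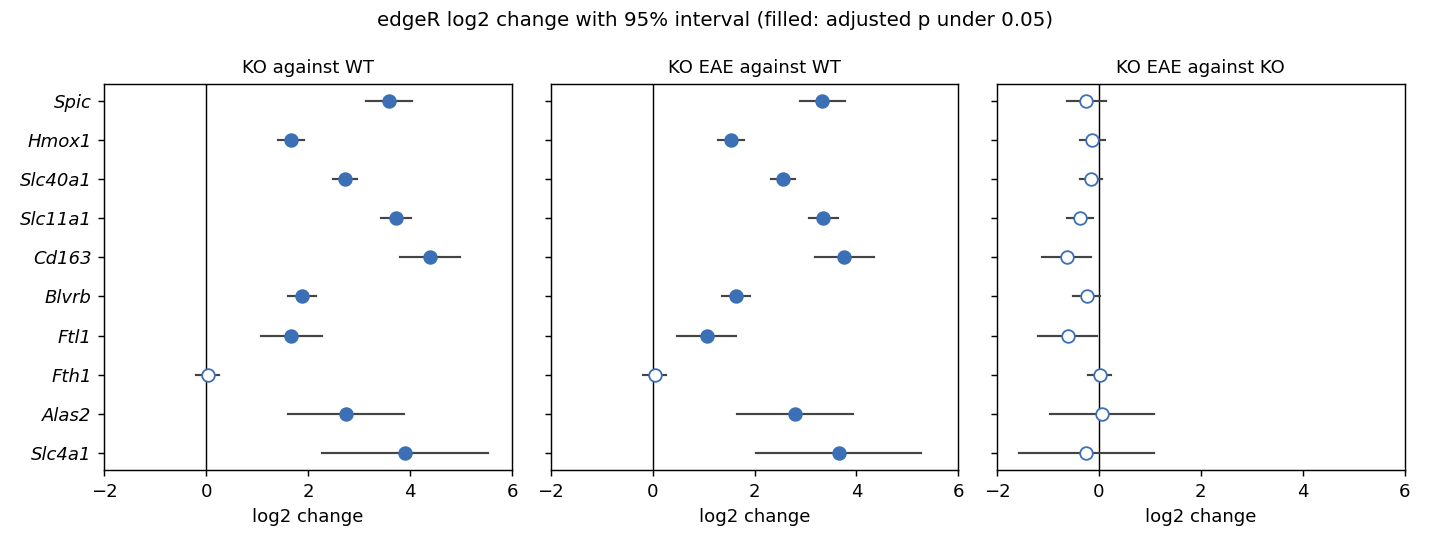
edgeR log2 changes (horizontal axis) with their 95% intervals for the 10 members (rows) in KO against WT, KO EAE against WT and KO EAE against KO; filled points have an adjusted p under 0.05. The first 2 panels have 9 filled points each, from 1.66 to 4.40 and from 1.06 to 3.76, and the third has none.

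In the normalized table, described below, both ferritin chains had both KO values above both WT values. In the count table they parted. Ftl1 (chromosome 7, 45457944 to 45459884), the light chain, had 2439 and 2171 CPM in KO, against 868 and 579 CPM in WT, and stood between them in KO EAE with 1321 and 1697 CPM. No library of 1 group overlapped with another group. Its log2 change was 1.67 ± 0.24 in KO against WT (adjusted p = 0.00772), 1.06 in KO EAE against WT (adjusted p = 0.0467) and -0.61 in KO EAE against KO (95% interval -1.19 to -0.03, adjusted p = 0.522). The KO against WT call was lost without KO replicate 1 (adjusted p = 0.0523) or without WT replicate 2 (adjusted p = 0.0564). In KO EAE against WT only 1 of the 6 leave-one-out fits, that without KO EAE replicate 1, kept the call (adjusted p up to 0.263 in the others).

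Fth1 (chromosome 19, 9980598 to 9985098), the heavy chain, had 102 and 105 CPM in KO EAE, 94.5 and 110.6 CPM in KO and 101 and 99.7 CPM in WT. The KO values lay on both sides of the WT values. The log2 change in KO against WT was 0.03 (95% interval -0.19 to 0.25; adjusted p = 0.861), and in KO EAE against WT 0.04 (adjusted p = 0.801). The log2 change of Ftl1 lies outside the first of these intervals.

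The raw reads of Fth1 were unusually even: 1594 and 1632 in KO EAE, 1667 and 1623 in KO and 1618 and 1631 in WT. Their variance over the 6 libraries was 0.347 of their mean, a spread below that of counting alone. Of 5243 genes that averaged at least 1000 reads, 22 (0.420%) had a variance below their mean, and the median ratio was 19.8. Reads of Ftl1 per read of Fth1 were 12.9 and 16.2 in KO EAE, 25.8 and 19.6 in KO and 8.58 and 5.81 in WT. In the normalized table, described below, that ratio was 1.24 and 1.15 in KO and 1.04 and 1.05 in WT, so the tables hold unlike amounts of the heavy chain. Fth1 ranked at percentile 86.7 of all genes by mean reads in the count table and at percentile 99.7 by mean signal in the normalized table. Ferritin genes have processed copies elsewhere in the genome, so reads of both chains are uncertain. RefSeq lists 5 ferritin pseudogenes by name, and none of them has a row in the count table.

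**Figure D3:**
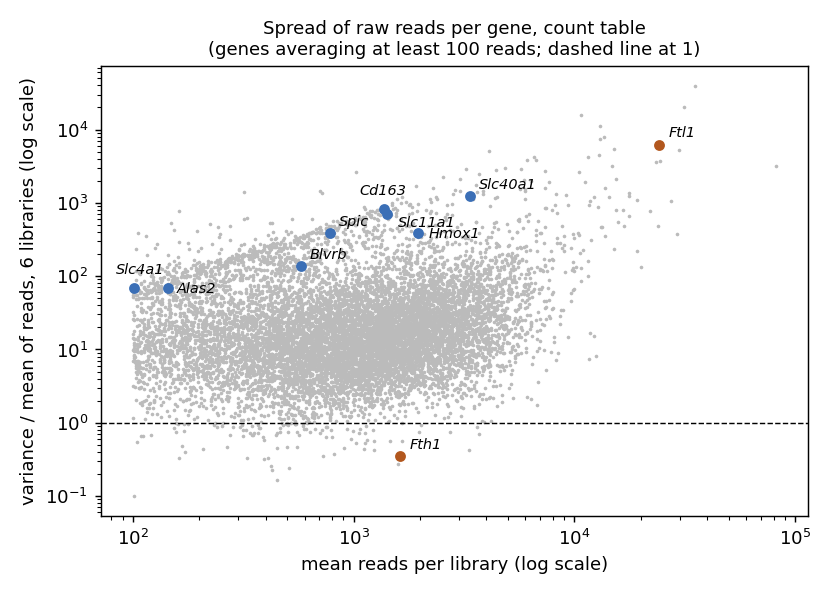
Variance of raw reads over the 6 libraries divided by their mean (vertical log axis) against mean reads per library (horizontal log axis) for genes averaging at least 100 reads in the count table; the dashed line marks a ratio of 1, ferritins are orange and other members blue. Fth1 lies at 0.347, below the line, and the other 9 members lie above it.

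Both erythroid genes rose in KO against WT, at low levels and with an uneven split between replicates. Alas2 (chromosome X, 150547375 to 150570638) had 9.43 and 16.8 CPM in KO EAE, 8.56 and 16.8 CPM in KO and 2.12 and 1.65 CPM in WT. All 4 KO and KO EAE libraries lay above both WT libraries, and replicate 2 was the higher one in both KO groups. The log2 change was 2.74 ± 0.47 in KO against WT (adjusted p = 0.0141), 2.79 in KO EAE against WT (adjusted p = 0.0166) and 0.05 in KO EAE against KO (95% interval -0.96 to 1.07, adjusted p = 0.969). Alas2 overlaps Apex2 on the other strand, and whether counting used the strand is not given in the sources used here.

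Slc4a1 (chromosome 11, 102348824 to 102366203) had 95 and 174 reads in KO EAE, 102 and 216 reads in KO and 15 and 7 reads in WT. In CPM these were 6.09 and 11.2 in KO EAE, 5.78 and 14.7 in KO and 0.937 and 0.428 in WT. The log2 change was 3.89 ± 0.67 in KO against WT (adjusted p = 0.0143), 3.65 in KO EAE against WT (adjusted p = 0.0228) and -0.24 in KO EAE against KO (adjusted p = 0.887). In KO against WT, Alas2 and Slc4a1 lost their calls without KO replicate 2 (adjusted p = 0.0747 and 0.0700), without WT replicate 1 (0.0727 and 0.0529) and without WT replicate 2 (0.0902 and 0.0841). In KO EAE against WT both lost them without either WT library, and Slc4a1 also without KO EAE replicate 2 (highest adjusted p 0.105 and 0.124).

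In the count table, the replicate split of the erythroid genes went with that of the B cell markers in both KO groups, but not in WT. Replicate 2 over replicate 1 gave log2 ratios of 0.83 for Alas2 and 0.86 for Slc4a1 in KO EAE, of 0.96 and 1.33 in KO, and of -0.35 and -0.97 in WT. Those in KO stood at percentiles 97.4 and 98.6 of all genes tested. The 8 B cell markers were all higher in replicate 2 in KO EAE (median log2 ratio 1.18) and in KO (median 1.26), against 4 of 8 in WT. They summed to 73.4 and 146 CPM in KO EAE, 83.7 and 129 CPM in KO and 46.7 and 42.4 CPM in WT. In the normalized table, described below, KO replicate 1 was the higher one for the summed B cell markers (1298 and 815). There it was also higher for Alas2 (80.2 and 24.0), while Slc4a1 had 0 and 24.9 in KO. The 6 iron recycling genes had median log2 ratios of 0.15 in KO EAE, 0.14 in KO and 0.14 in WT, smaller in size than those of the erythroid genes. Single genes were less even, with 0.63 for Cd163 in WT and 0.47 for Spic in KO EAE. In the normalized table these 6 genes summed to 23519 and 19095 in KO and to 4496 and 9408 in WT. The part of other blood cells in the erythroid change was not tested.

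The promoter of Alas2 is shown because its motifs are those of well-known red cell factors. Its 250 bases before the RefSeq start (GRCm38.p6, chrX:150547167-150547416, plus strand) are printed with matches in capitals to GATAA, the core bound by GATA factors, to CACCC, bound by KLF factors, and to GAGGAA, the core bound by ETS factors such as the one Spic encodes, each sought on both strands.
Alas2 promoter: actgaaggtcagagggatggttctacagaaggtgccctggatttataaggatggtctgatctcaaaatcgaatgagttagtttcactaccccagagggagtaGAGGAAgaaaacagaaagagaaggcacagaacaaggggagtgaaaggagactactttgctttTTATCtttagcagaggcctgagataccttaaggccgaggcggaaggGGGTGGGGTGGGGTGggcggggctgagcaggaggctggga
Cd163 promoter: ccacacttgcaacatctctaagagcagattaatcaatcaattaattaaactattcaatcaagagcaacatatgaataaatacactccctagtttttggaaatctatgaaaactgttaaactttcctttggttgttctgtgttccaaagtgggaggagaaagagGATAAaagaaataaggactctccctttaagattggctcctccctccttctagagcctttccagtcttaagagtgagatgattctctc
The Alas2 window held 1 GATAA match (as TTATC, 86 to 82 bases before the start), 3 CACCC matches (as GGGTG, 40 to 26 bases before it, side by side) and 1 GAGGAA match. The Cd163 window (chr6:124304401-124304650, plus strand), shown for the member with the highest fold, held 1 GATAA match and none of the others. Over all 32851 RefSeq promoters of this length, 22.6% held GATAA, 52.0% CACCC and 23.3% GAGGAA, so such matches are common. RefSeq promoters were matched for 7 of the 10 members, and Slc11a1 was the only other one with GAGGAA. The letters TGACNNNGC of the antioxidant element, present in 10.2% of all promoters, were in none of the 7 members' windows. A match describes the letters and is not evidence of binding.

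The wider red cell list was measured in 21 of its 26 genes, beside Alas2 and Slc4a1. In KO against WT 4 rose and 1 fell (median log2 change 1.67), and in KO EAE against WT 5 rose and 1 fell (median 1.97). Of all genes tested, 9.41% rose and 3.46% fell in the first comparison, and 7.41% and 1.95% in the second. The same shares apply to the lists below. Those that rose in KO included Epor and Hemgn. Epor, the erythropoietin receptor gene, had 12.3 and 12.4 CPM in KO EAE, 19.5 and 17.2 CPM in KO and 1.31 and 1.22 CPM in WT (KO against WT log2 change 3.85, adjusted p = 0.000188). Hemgn, a nuclear protein gene of blood cell precursors, had a log2 change of 2.37 (adjusted p = 0.0214). In the normalized table, described below, limma called 0 of 16 genes of this list (median 1.25). There Hemgn had a signal of 22.3 and 12.9 in KO, against 0 and 23.7 in WT, which overlap. Epor had 86.0 and 77.3 in KO, against 17.8 and 34.5 in WT, with no overlap.

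Gata1, the master regulator of red cell formation, went the other way: it fell to 9.35 and 8.04 CPM in KO, against 43.5 and 36.4 CPM in WT, and was 9.37 and 6.28 CPM in KO EAE. Its log2 change in KO against WT was -2.20 (adjusted p = 0.00237), and that call, like the one of Epor, was kept whichever of the 6 libraries was omitted. The normalized table gave -1.15 for Gata1 (limma, adjusted p = 0.220). The call of Hemgn was lost without KO replicate 2, WT replicate 1 or WT replicate 2 (highest adjusted p 0.134). In KO EAE against WT the number that rose was 11 without KO EAE replicate 1, 2 without either KO library and 1 without any 1 of the other 3. In KO against WT it was 10 without KO EAE replicate 1, 11 without KO EAE replicate 2, and 1 without KO replicate 2, WT replicate 1 or WT replicate 2. How many of all genes were called also differed between such fits, as given in the last part. The list counts, here and below, were not set against that number. The most abundant red cell transcripts were missing from the count table, where the globin genes Hba-a1, Hba-a2, Hbb-bs and Hbb-bt were at 0 in every library. Whether globin reads were lost in counting was not tested, so these zeros set no upper limit on globin RNA. In the normalized table Hba-a1 and Hba-a2 were listed at 0 too, and a row named Beta-s, a synonym of Hbb-bs, had a signal of 720 and 149 in KO, against 56.0 and 163 in WT, which overlap.

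Among the other genes that take up, break down or export heme, 5 of 13 measured rose in KO against WT and none fell (median log2 change 0.49), and 4 rose in KO EAE against WT. Lrp1, whose protein takes up heme bound to hemopexin among many ligands, had 470.3 and 614 CPM in KO, against 34.2 and 30.2 CPM in WT (log2 change 4.07, adjusted p = 6.16e-05). Slc48a1 (HRG1), which carries heme out of the phagolysosome, had 142 and 135 CPM in KO and 68.8 and 65.5 CPM in WT (log2 change 1.04, adjusted p = 0.000316). Blvra, which encodes the reductase that turns the biliverdin made by Hmox1 into bilirubin, had a log2 change of 0.66 (adjusted p = 0.00475). Nfe2l2 (NRF2), an activator of Hmox1, had 0.50 (adjusted p = 0.0175), a call lost without KO replicate 2, WT replicate 1 or WT replicate 2. Of 10 further target genes of NRF2, 2 rose in KO against WT and none fell (median 0.41), namely Srxn1 at 2.07 (adjusted p = 0.00852) and Gclm at 0.67 (adjusted p = 0.00489). In the normalized table, described below, limma called 0 of 12 heme genes (median 0.23) and 0 of 8 NRF2 targets (median 0.08). There Srxn1 had a signal of 83.5 and 143 in KO, against 78.9 and 164 in WT, which overlap. Nfe2l2 had 2392 and 2470, against 2439 and 2366, which overlap too. Lrp1, Slc48a1, Blvra and Gclm had both KO values above both WT values. The counts that follow are again from the count table. The heme list had 3 genes that rose without KO replicate 2 or WT replicate 1, and in KO EAE against WT 2 without either WT library. The NRF2 list had 5 without either KO EAE library and 1 without any 1 of the other 4 libraries.

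In the list of iron uptake, storage and its control, 5 of 18 measured genes rose and 1 fell in KO against WT (median log2 change 0.22), and 4 rose in KO EAE against WT. Hfe, a regulator of iron sensing that is also high in macrophages, had 74.5 and 91.2 CPM in KO, against 4.44 and 3.61 CPM in WT (log2 change 4.36, adjusted p = 4.77e-05). Trf, which encodes transferrin, had 220.0 and 270.4 CPM in KO, against 35.8 and 45.1 CPM in WT (log2 change 2.60, adjusted p = 0.00018). Ncoa4, the receptor that delivers ferritin to the lysosome, had a log2 change of 0.42 (adjusted p = 0.0308). The gene that fell was Tfrc, with 83.0 and 110.0 CPM in KO, against 155 and 169 CPM in WT (log2 change -0.75, adjusted p = 0.0197). The Tfrc call was lost without KO replicate 1, WT replicate 1 or WT replicate 2 (highest adjusted p 0.105), and the normalized table gave 0.11 for it (limma, adjusted p = 0.863). The Ncoa4 call was lost without KO replicate 2 or either WT library. The number of list genes that rose in KO against WT was 7 without either KO EAE library, 3 without KO replicate 1, and 2 without any 1 of the other 3. In KO EAE against WT it was 7 without KO EAE replicate 1, 3 without KO EAE replicate 2 and 2 without any 1 of the other 4. None of 8 other heme synthesis genes was called in KO against WT by edgeR (median 0.05), with Cpox at -0.01 (adjusted p = 0.980) and Fech at 0.23 (adjusted p = 0.153); without either KO EAE library 1 of them was.

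Markers of further cell types moved in the same libraries, to differing extents. Over all genes tested, 9.41% rose in KO against WT and 3.46% fell, a share near that of the B cell markers given next. In KO against WT 4 of 7 markers of marginal zone and other splenic macrophages rose (median log2 change 3.81), 3 of 8 of dendritic cells (2.84), 2 of 8 of monocytes and neutrophils (2.17), 1 of 8 of B cells (2.01) and 2 of 8 of platelets, and none of these fell. Leaving out KO EAE replicate 1 gave 6, 6, 4, 2 and 4 of them, and leaving out KO EAE replicate 2 gave 7, 6, 4, 2 and 5. Leaving out a KO or WT library gave 3 or 4, 2 or 3, 1 or 2, 0 and 1. Of the macrophage markers, Timd4, a receptor for dying cells, had a log2 change of 3.71, Marco 4.70, Vsig4 4.15 and Clec7a 3.81. Of the dendritic cell markers, Itgax (CD11c) had 4.24, Batf3 3.87 and Clec9a 2.70. Csf3r and Lyz2 of the monocyte and neutrophil list had 4.74 and 2.34. Cd22 was the B cell marker that rose, at 2.05, and Cd79b had 0.17 (adjusted p = 0.699). The platelet markers that rose were Itgb3 at 0.60 and Treml1 at 1.57. Of 10 T cell and regulatory T cell markers none rose and 5 fell (median -0.23), with Il2ra at -0.87, Ikzf2 at -0.78, Ctla4 at -0.69 and Foxp3 at -0.38. Without either KO EAE library 5 of these still fell, and without any 1 of the other 4 libraries 1 or 2 did. The T cell markers summed to 1844 and 1711 CPM in KO EAE, 1705 and 1774 CPM in KO and 2308 and 2219 CPM in WT. Over the same libraries the 6 iron recycling genes summed to 715 and 782 CPM in KO EAE, 852 and 956 CPM in KO and 128 and 148 CPM in WT. In the normalized table, described below, limma called none of the markers tested. Medians there were 2.13 for marginal zone and other splenic macrophages, 1.33 for dendritic cells, 0.30 for monocytes and neutrophils and 0.91 for B cells. Lyz2 had a signal of 1586 and 1165 in KO, against 861 and 1409 in WT, and Cd22 719 and 495, against 442 and 755. These overlap, as did Csf3r, Timd4 and Treml1. Marco, Clec7a, Itgax, Batf3 and Itgb3 had both KO values above both WT. Foxp3 had 2306 and 2061 in KO, against 2178 and 2420 in WT, which overlap. Il2ra, Ikzf2 and Ctla4 had both KO values below both WT.

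**Figure D4:**
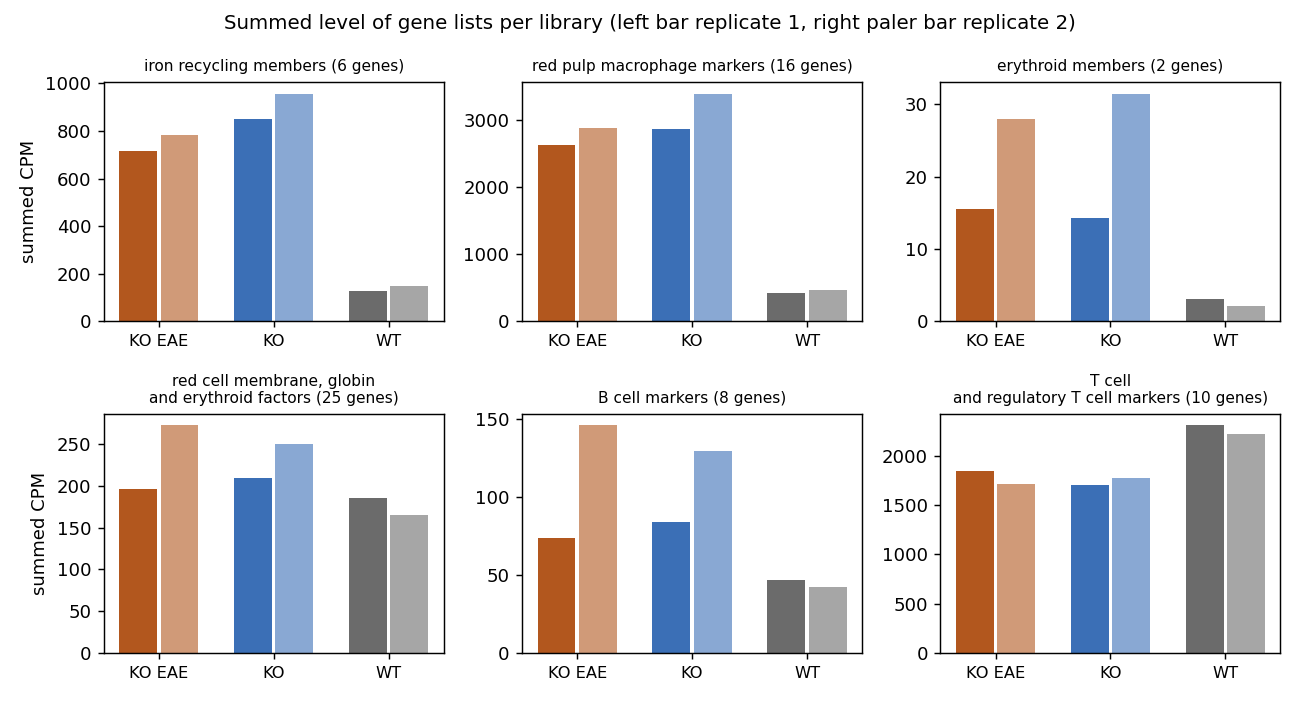
Summed TMM-scaled CPM (vertical axes from 0) of 6 gene lists in each library, with KO EAE at the left, KO in the middle and WT at the right; the left bar of a pair is replicate 1 and the right, paler bar replicate 2. The iron recycling genes (852 and 956 CPM in KO, 128 and 148 CPM in WT) and the red pulp macrophage markers (2861 and 3393 CPM in KO, 426 and 469 CPM in WT) have pairs of closer height, while the erythroid and B cell pairs are uneven in both KO groups.

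Not all iron recycling genes kept their proportions to Spic within a library. Reads of Slc11a1 per read of Spic were 1.93 and 1.59 in KO EAE, 1.84 and 1.93 in KO and 1.61 and 1.80 in WT, so the KO EAE values overlapped with those of both other groups, while both KO values lay above both WT values. Reads of Cd163 per read of Spic were 1.63 and 1.46 in KO EAE, 1.87 and 2.12 in KO and 0.868 and 1.42 in WT. Reads of Hmox1 per read of Spic were 2.77 and 2.01 in KO EAE, 2.13 and 2.14 in KO and 7.13 and 9.11 in WT. Those of Slc40a1 per read of Spic were 5.04 and 3.74 in KO EAE, 4.07 and 4.01 in KO and 6.68 and 8.11 in WT. Hmox1 and Slc40a1 thus stood higher relative to Spic in both WT libraries than in the other 4, and Cd163 stood lower there. In the normalized table Slc40a1 alone kept its order, with 16.2 and 12.5 per Spic in KO and 18.5 and 17.6 in WT. The others overlapped there. Hmox1 per Spic was 8.20 and 6.95 in KO and 6.63 and 9.43 in WT. Cd163 per Spic was 0.490 and 0.320 in KO and 0.688 and 0.280 in WT. Slc11a1 per Spic was 1.27 and 1.08 in KO and 0.768 and 1.57 in WT. These ratios were compared by their values alone and not tested.

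In the count table, per kilobase of annotated exon, the order of the members' levels in KO began with Ftl1. It stood at 1819.8 and 1620.3 CPM per kilobase, far above the rest. Hmox1 followed at 89.8 and 98.6, then Slc11a1 at 36.5 and 41.9, Slc40a1 at 33.3 and 35.9, Fth1 at 27.2 and 31.9 and Cd163 at 25.2 and 31.3 CPM per kilobase. Fth1 and Cd163 overlapped, and so did the next pair, Spic at 19.2 and 21.0 and Blvrb at 17.5 and 19.5 CPM per kilobase. Alas2 and Slc4a1 came last, at 3.56 and 6.98 and at 1.18 and 3.01 CPM per kilobase. In WT, Ftl1 stood at 648 and 432 CPM per kilobase. Hmox1 (27.0 and 32.4 CPM per kilobase) and Fth1 (29.1 and 28.7) followed and overlapped, and Slc40a1 (4.92 and 5.62) overlapped with Blvrb (4.87 and 5.19). Slc11a1 (2.88 and 3.04), Spic (1.72 and 1.62), Cd163 (1.05 and 1.62), Alas2 (0.884 and 0.687) and Slc4a1 (0.192 and 0.0875) closed the WT order, with Spic and Cd163 touching at their lower and upper values. In KO EAE all but Ftl1 and Hmox1 lay at 32.2 CPM per kilobase or less. The place of Fth1 in these orders rests on its unusually even reads, given above. In the normalized table, described below, Ftl1 also came first in KO, at a signal of 23220 and 19373 per kilobase. Fth1 was next there (7209 and 6498), above Hmox1 (3983 and 3397).

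The authors' normalized table covers only the KO and WT libraries and holds other values under the same library names, so it was tested apart. There all 10 members averaged higher in KO than in WT, with less distance between the groups and a wide gap between the WT libraries. Spic had a normalized signal of 850.1 and 856 in KO, against 159 and 308 in WT. Hmox1 had 6974 and 5948 in KO, against 1055 and 2905 in WT. Cd163 had 417 and 274 in KO, against 109 and 86.2 in WT. For 9 members, all but Slc4a1, both KO libraries lay above both WT libraries, as for 23.2% of the genes tested. For Spic, Hmox1, Slc40a1, Slc11a1 and Blvrb the WT replicate 2 value was the higher of the WT pair, and the summed red pulp macrophage markers were 46207 and 39198 in KO, against 12549 and 19863 in WT.

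On log2(signal + 1), a scale that understates the change of low genes, limma gave log2 changes of 1.94 for Spic (adjusted p = 0.0900), 1.88 for Hmox1 (0.134), 1.60 for Slc40a1 (0.0815), 2.03 for Slc11a1 (0.231), 1.79 for Cd163 (0.160) and 1.41 for Blvrb (0.231). None of the 10 members was called, in a table where limma called 0.0697% of genes (9 of 12904). An unadjusted p under 0.05 was found for 8 members and for 12.7% of all genes. edgeR on the whole reads recovered from that table also called none of the 10 (0.0979% of genes called, 12 of 12253), and again 8 members had an unadjusted p under 0.05. The red pulp macrophage markers had a median log2 change of 1.49 there, with 0 of 16 called by limma. The change of Cd163 was 6.10-fold larger in the count table than in the normalized table, that of Spic 3.12-fold and that of Slc11a1 3.23-fold, while that of Hmox1 was alike (log2 change 1.66 from counts and 1.88 from normalized values).

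For the ferritins the tables gave a different picture of each chain. Ftl1 had a signal of 31115 and 25960 in KO, against 20043 and 19447 in WT (limma log2 change 0.53, adjusted p = 0.134). Fth1 had 25006 and 22542 in KO, against 19199 and 18501 in WT, a log2 change of 0.33 (95% interval 0.11 to 0.55; adjusted p = 0.245). Both KO values of Fth1 lay above both WT values, unlike in the count table. Alas2 had 80.2 and 24.0 in KO, against 15.3 and 10.8 in WT (97 and 28 recovered reads, against 12 and 10), with KO replicate 1 the higher library here (log2 change 1.70, adjusted p = 0.488). Slc4a1 had 0 and 24.9 in KO, against 0 and 12.9 in WT, so that too few reads were there for a comparison.

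In the authors' deposited table of their own KO and WT comparison, 6 of the 8 members with an adjusted p were under 0.05, where 3.36% of genes were called, 1.71% higher and 1.64% lower. Its mean signals equal those of the normalized table (543 for Spic), so it rests on the same values and is not independent of the tests above. Its changes of the 6 iron recycling genes were smaller than those from limma (1.13 against 1.94 for Spic). Those of Ftl1 were close (0.50 and 0.53), and the reason was not tested. The authors' deposited table lists Spic at a log2 fold change of 1.13 (adjusted p = 2.58e-05), Slc40a1 at 0.72 (0.0346), Slc11a1 at 0.84 (0.00838), Cd163 at 0.83 (0.00961), Ftl1 at 0.50 (0.000161) and Fth1 at 0.32 (0.0306). The same authors' deposited table lists Hmox1 at 0.48 (adjusted p = 0.209) and Blvrb at 0.67 (0.0660), and gives no adjusted p for Alas2 (0.22) and Slc4a1 (0.02). All 10 are above 0, with the direction taken from the sign of Bcl11b, which the authors' deposited table gives as -0.80.

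**Figure D5:**
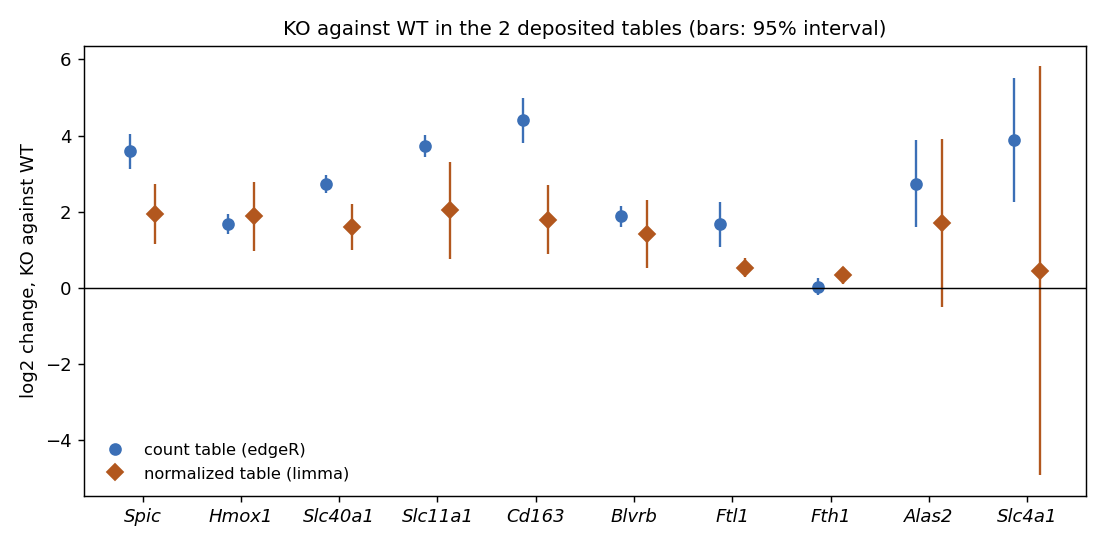
Log2 change of the 10 members in KO against WT (vertical axis) from the count table (blue circles, edgeR) and from the normalized table (orange diamonds, limma), with 95% intervals as bars. Spic stands at 3.58 and 1.94 and Cd163 at 4.40 and 1.79, while Hmox1 stands at 1.66 and 1.88, and the interval of Slc4a1 in the normalized table is the widest.

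The genes with the pattern most like that of Spic over the 6 libraries of the count table were ranked among 10950 genes that averaged at least 5 CPM, by the Euclidean distance of log2(CPM + 1) after each gene's own mean was taken off. They were Sh2d1b1 (distance 0.124), Lyn (0.124), Gatm (0.154), Nfam1 (0.156) and H2-DMb1 (0.156). Lyn, a Src-family kinase gene of myeloid and B cells, had 128 and 169.9 CPM in KO EAE, 169.9 and 194 CPM in KO and 16.3 and 17.0 CPM in WT. For Slc4a1 the nearest was Nxpe4 (distance 0.159), with 7.70 and 14.9 CPM in KO EAE, 7.60 and 21.1 CPM in KO and 1.44 and 0.917 CPM in WT. The next, Il13ra1 (0.620), Ciita (0.621), I830077J02Rik (0.634) and Lyz2 (0.664), lay much further off. All 6 libraries are shared by these distances, which describe likeness of level only.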

How the data were processed

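RNA of sorted regulatory T cells was sequenced on a NextSeq500 from NEBNext Ultra II libraries, per the labels' protocols. HISAT2, HTSeq, DESeq2 and mm10 are named in the submitters' processing notes, while versions, annotation and strand setting are not stated there. The authors deposited 3 tables: whole-number read counts of 6 libraries; KO and WT values divided by size factors, a normalized signal; and their own comparison, per the file headers with a mean signal, log2 fold changes and standard errors, a score for each test, and raw and adjusted p-values. In the normalized table every value above 0 was a whole number of reads (100% in each library, tolerance 0.02 reads), so whole reads were recovered. Rows that name no gene, 25 of 24449 and 27 of 23420, were left out (at most 0.217% and 0.284% of a library).

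For the counts, edgeR 4.0.16 under R 4.3.3 was used (filterByExpr keeping genes by a minimum count of 10 and a minimum total of 15; TMM; quasi-likelihood; 1 coefficient for each of 3 groups; Benjamini-Hochberg over 14548 genes; threshold 0.05). DESeq2 1.42.0 was an alternative. The SE is approximate, the size of the change over the square root of F. Normalized values were tested with limma 3.58.1 on log2(value + 1) for genes with a mean of at least 5. The scripts were tested on simulated data. Floors and intervals on reads cover counting error only. Positions and untranslated parts came from GENCODE M21 and promoters from RefSeq.

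Members, lists and the naming rule were chosen with earlier results of these data known. All 10 members are named; of each other list, up to 4 called genes with the smallest p in KO against WT or, where fewer than 2 are called, the 2 with the highest mean CPM. Klf1 and the other called genes beyond these are counted, and 1 gene that the rule names is not reported here. Of 158 list genes, the count table had 153 under their symbol and 2 under a synonym, and 148 and 5 were found likewise among the normalized values. Exon lengths are unions over annotated transcripts.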

Additional observations from a re-analysis of the deposited data

How the results depend on the processing

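The 6 iron recycling genes kept their calls in all 13 alternatives within the count table, in KO against WT and in KO EAE against WT (156 of 156 fits). With 1 library left out, edgeR called 6 to 9 members and 846 to 3087 genes in KO against WT, 6 to 9 members and 603 to 3762 genes in KO EAE against WT, 0 members and 0 to 313 genes in KO EAE against KO, and 0 members and 0 genes in the normalized table. Fits of only the compared groups called 3121 genes in KO against WT (64.8% higher, against 73.1% in the fit of 3 groups with 1873), 782 in KO EAE against WT (1362 in the fit of 3 groups) and 0 in KO EAE against KO. DESeq2 called 2213 genes in KO EAE against WT and 167 in KO EAE against KO. In KO EAE against WT, Ftl1 lost its call in the fit of only 2 groups (adjusted p = 0.102). The 9 genes called among normalized values became 1 with no filter, 4 with a pseudocount of 0.5 and 45 with a pseudocount of 5, where 1 member, Slc40a1, was called (adjusted p = 0.0496). Counting members in that table instead of the count table gave 0 in place of 9.

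No label says whether a replicate number marks a shared animal or day, and the main fits used no replicate block. Deviations of same-numbered libraries correlated at 0.197 (KO EAE and KO), -0.0861 (KO EAE and WT) and 0.0124 (KO and WT), and at 0.0390 in the normalized table. Such correlations over all genes cannot show whether samples were paired. With a replicate block the normalized table had 131 genes and 5 members called (Spic, Hmox1, Slc40a1, Slc11a1 and Ftl1), KO EAE against KO had 0 genes, and Ftl1 lost its call in KO EAE against WT (adjusted p = 0.0752); the block changed no other member's call.

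Signs turned only for values near 0 or with few reads, none of them called: Fth1 in KO against WT without KO replicate 2 (-0.087); in KO EAE against KO, Fth1 under DESeq2 (-0.011), library totals only (-0.018), no filter (-0.012), without KO replicate 1 (-0.11) and without KO EAE replicate 2 (-0.0039), Alas2 without KO replicate 1 (-0.37) and without KO EAE replicate 2 (-0.42; range with 1 library left out -0.42 to 0.62), and Slc4a1 without KO replicate 2 (0.58) and without KO EAE replicate 1 (0.14; range -0.78 to 0.58); and Slc4a1 in the normalized table without WT replicate 1 (-1.45; range -1.45 to 2.79). The cause was not tested. Slc4a1 and Alas2 rest on 7 to 34 reads per WT library, which limits their folds.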
